A study of Mus musculus with 3 samples.

Results

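The Hox genes of the 4 mouse clusters, Hoxa, Hoxb, Hoxc and Hoxd, were followed across 3 plates of single cells from the embryonic kidney. They were taken as every symbol in the count tables made of Hoxa, Hoxb, Hoxc or Hoxd and a number, which gave 36 of 28982 features: 11 in cluster A, 9 in B, 7 in C and 9 in D. Of these, 35 were listed for the E11.5 cultured plate, where Hoxb1 was not listed. Each plate was prepared by SORT-seq, which sorts cells into a plate of 384 wells and counts each captured transcript end once through a molecular identifier (UMI). All cells came from C57BL/6 mice. The first plate held uncultured kidney cells of E11.5 embryos carrying LGR6-EGFP-IRES-CreERT2, a knock-in that joins a green reporter and a tamoxifen-dependent Cre to the Lgr6 gene. The other plates held kidney cells of LGR6-EGFP-IRES-CreERT2/ROSA26-tdTomato embryos, which also carry a Cre-dependent red reporter, after ex vivo culture of the explanted kidney in medium (Dulbecco's) that held fetal calf serum. Of these, one started at E12.5 and was cultured for 5 days; the other started at E11.5 and had 7 days of culture according to the title, while the stage label gives 5. The uncultured plate differs from the cultured ones in culture, genotype and sequencing run at once, and these cannot be told apart. No source used here gives the sort gate, and no label says how many embryos or explants a plate pooled.

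Hox genes encode homeodomain transcription factors that mark position along the body axis. Within a cluster their order on the chromosome follows the order in which they are expressed, from anterior (group 1) to posterior (group 13), and genes at the same place in different clusters are paralogues. The kidney forms from the posterior intermediate mesoderm, and its mesenchyme is known for Hox genes of groups 9 to 11: Hoxa11, Hoxc11 and Hoxd11 are jointly required for the kidney to form, and the Hox10 genes act in its stroma. Genes of group 13 are known from the digits, the hindgut and the genital and cloacal region at the tail end of the axis.

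Of the ordinary wells, 337 of 369 on the uncultured plate, 200 of 327 on the E12.5 cultured plate and 300 of 327 on the E11.5 cultured plate were kept as cells. They held 4159791, 2349129 and 3210838 counts of nuclear-encoded genes, with medians of 6732, 9212 and 8992 counts per well. The deepest well held 8.77%, 3.31% and 2.44% of its plate's counts. Six2, of the nephron progenitor, stood at 312, 77.6 and 42.4 counts per 1000000 (CPM), Foxd1, of the cortical stroma, at 339, 173 and 94.4, the epithelial gene Epcam at 22.6, 22.6 and 10.3, and the collagen gene Col1a1 at 601, 7097 and 11105. The labelled kidney origin was thus met by markers on every plate, in different amounts. Each group is 1 plate, so no test was run. Intervals are exact 95% intervals and cover counting error only, and where a plate had 0 counts the limit given is that of 3 counts over its total. In a sum over a plate, fewer cells with a gene and less RNA of it per cell cannot be told apart.

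Hox transcripts were found in nearly every well, and their summed level was lower on both cultured plates. At least 1 Hox count was present in 335 of 337 uncultured, 197 of 200 E12.5 cultured and 292 of 300 E11.5 cultured wells. The median well held 16, 17 and 12 Hox counts from 10, 9.5 and 7 members. Summed over the members, the level was 2529 CPM (2480.4 to 2577), 1731 (1678 to 1785) and 1494 (1452 to 1537). Control wells held 34, 8 and 6 Hox counts over 15 wells per plate, or 2.27, 0.533 and 0.4 per well against 31.2, 20.3 and 16 per kept well. Leukocyte wells, with at least 6 of 8 leukocyte markers, held a median of 3, 3 and 1 Hox counts. The share of wells with at least 1 Hox count is therefore no measure of the share of expressing cells. Of the 36 members 29 reached 100 counts over the kept wells of all plates. Among those that did not were Hoxa4, Hoxa6, Hoxa13, Hoxb1, Hoxd1 and Hoxd3.

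Over all kept wells the paralogue code leaned to the posterior side on each plate, with a somewhat larger posterior share on the cultured plates. Groups 9 to 13 took 51.9% (51 to 52.9) of the Hox counts without culture. They took 58.3% (56.7 to 59.8) on the E12.5 cultured and 54.8% (53.4 to 56.3) on the E11.5 cultured plate. None of these intervals overlapped. Groups 4 to 8 took 36.3%, 34.2% and 34.8%, and groups 1 to 3 took 11.7%, 7.57% and 10.4%. The count-weighted mean group number was 7.62, 8.07 and 7.91. Group 10 held most counts on every plate, at 668 CPM (643 to 693), 493 (465 to 523) and 373 (352 to 395). Group 2 was highest on the uncultured and group 13 on the E11.5 cultured plate: group 2 stood at 155, 39.6 and 51.4 CPM, and group 13 at 4.09, 5.53 and 47.7 CPM.

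By cluster, and summed over all kept wells, Hoxb differed most between the uncultured and the cultured plates. Cluster B summed to 522 CPM (500 to 545) without culture against 180 (164 to 199) and 194 (179 to 210) after it. Its share of all Hox counts was 20.7%, 10.4% and 13%. Cluster A summed to 712, 689 and 541 CPM, cluster C to 834, 499 and 422, and cluster D to 461, 362 and 336. Cluster A was thus the one whose level on the E12.5 cultured plate lay within the counting error of the uncultured one (687 to 738 against 656 to 724).

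**Figure D1:**
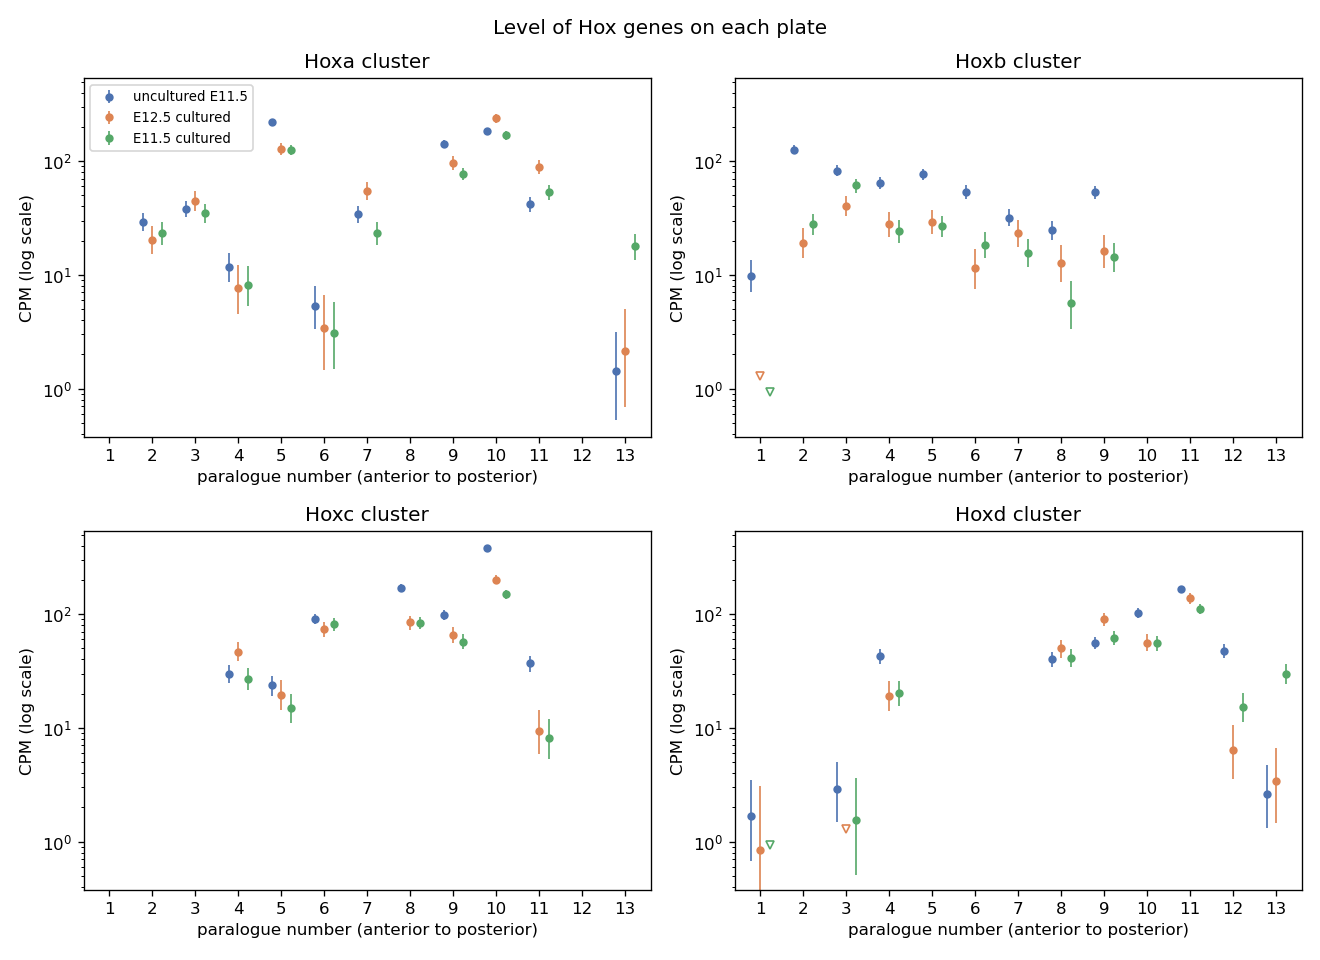
Level of 35 of the 36 Hox members in CPM (log axis) against paralogue number, with 1 panel per cluster and 1 colour per plate; points are sums over kept wells, bars exact Poisson 95% intervals, and open triangles the limit of 3 counts where a plate had 0. Hoxc10 stands at 383 on the uncultured plate, and Hoxd13 at 29.9 on the E11.5 cultured plate against 2.64 and 3.41 on the others.

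Each molecule is counted at its end, so values were not divided by gene length. Which gene receives a count is less certain than its number, since 20 of the 36 members overlap another gene span in RefSeq and no source used here gives the strand setting of the counting. With that limit, Hoxc10 was the highest member without culture at 383 CPM (365 to 402), apart from Hoxa5 at 219 (205 to 234) and Hoxa10 at 183 (170 to 196). Hoxa10, Hoxc8 and Hoxd11 followed each other with overlapping intervals. After culture Hoxa10 came first, at 238 (218 to 258) from E12.5 and 168 (154 to 183) from E11.5. Hoxc10 came next at 200 (182 to 219) and 150 (136 to 163), and the intervals of the pair overlapped on both cultured plates.

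Among the posterior groups, 9 to 11 held the most counts on every plate. Hoxd12, of group 12, stood at 47.4 CPM (41 to 54.5) without culture. On the cultured plates it stood at 6.39 (3.57 to 10.5) from E12.5 and 15.3 (11.3 to 20.2) from E11.5. Its uncultured interval overlapped those of Hoxa11 and Hoxc11. Hoxa9, which also acts in blood formation, stood at 142 CPM without culture, 96.2 from E12.5 and 77.2 from E11.5. Hoxc9 stood at 98.4, 66.0 and 57.3 in the same order, and Hoxd9 at 55.8, 89.8 and 62.0. The order of the plates was therefore the same for Hoxa9 and Hoxc9, with the uncultured plate highest, and another for Hoxd9, with the E12.5 cultured plate highest. Hoxd10, a paralogue of Hoxa10 and Hoxc10, stood at 102, 56.2 and 55.4 CPM. Of the group 11 trio, Hoxa11 stood at 41.8 CPM (35.8 to 48.5), 89.0 (77.3 to 102) and 53.3 (45.6 to 61.9). Hoxd11 stood at 165 (153 to 178), 137 (122 to 152) and 111 (99.7 to 123). Hoxc11 stood at 36.8 (31.2 to 43.1), 9.37 (5.87 to 14.2) and 8.10 (5.29 to 11.9), so the trio was not lowered alike. Hoxa11 shares its place with the antisense feature Hoxa11os, whose level had the same order over the plates (33.4, 58.7 and 40.5 CPM).

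Members of the middle groups in clusters A, C and D were of both kinds, lower after culture or highest on the E12.5 cultured plate. Hoxa5, which also patterns the lung, stood at 219, 128 and 126 CPM. Hoxc8, a thoracic gene of the axis, stood at 171, 84.3 and 84.1 CPM, and Hoxc6 at 91.2, 73.2 and 81.0. For Hoxc6 the intervals of all plates overlapped. Its ratio of E12.5 cultured to uncultured was 0.803 (0.667 to 0.965), so Hoxc6 was slightly lower there beyond counting error. Hoxa7 stood at 33.9, 54.9 and 23.4 CPM. Hoxc4 stood at 29.6, 46.8 and 27.1 CPM, and Hoxd8 at 39.9, 49.8 and 41.1. These 3 were highest on the E12.5 cultured plate, Hoxd8 with intervals that overlapped. Hoxc5 stood at 23.6, 19.6 and 14.9 CPM, and Hoxd4 at 42.8, 19.2 and 20.2. The anterior genes of cluster A, Hoxa2, which patterns the branchial arches, and Hoxa3, needed for the thymus and parathyroid, differed by under 2-fold: 29.1, 20.4 and 23.4 CPM for the first, and 38.0, 44.7 and 34.9 for the second.

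In cluster B, Hoxb2 to Hoxb5 stood above Hoxb6 to Hoxb9 without culture. Hoxb2, a hindbrain gene of group 2, stood at 126 CPM (115 to 137), 19.2 (14 to 25.6) and 28.0 (22.5 to 34.5). Hoxb3 stood at 82.3, 40.4 and 61.0 CPM. Hoxb4 stood at 63.8, 27.7 and 24.3, and Hoxb5 at 76.7, 29.4 and 26.8. These genes were all highest on the uncultured plate. Hoxb6 stood at 53.7 CPM without culture and 18.4 from E11.5, with 27 counts in all from E12.5. Hoxb7, whose promoter is widely used to drive transgenes in the ureteric bud, stood at 31.7, 23.4 and 15.6. Hoxb8 stood at 24.8, 12.8 and 5.61, and Hoxb9 at 53.4, 16.2 and 14.3. Hoxb1, the most anterior gene of the cluster, had 41 counts in 25 uncultured wells (9.86 CPM) and none in the kept wells of either cultured plate (at most 1.28 and 0.934 CPM).

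Other low members were Hoxa4 at 11.8, 7.66 and 8.10 CPM, Hoxa6 at 5.29, 3.41 and 3.11, Hoxd1 at 1.68, 0.851 and 0, and Hoxd3 at 2.88, 0 and 1.56. Hoxd3 counts may be understated, since the tables hold a further merged feature named Hoxd3-cluster with 83, 22 and 27 counts, which is no member.

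The comparison of the E11.5 cultured with the uncultured plate asks how the Hox code of 1 starting stage stands after culture. A member is counted as higher or lower where its CPM differed at least 2-fold, and members under 10 counts in a pair of plates are left out. Of 35 such members, 2 were higher and 13 lower, while over all features with as many counts 20.9% were higher and 11.4% lower. The median log2 ratio was -0.78 for the members and 0.07 for all 15777 features. Higher were Hoxa13 (12.3-fold, 5.32 to 34.9) and Hoxd13 (11.3-fold, 6.04 to 23.4). Lower were 8 genes of cluster B: Hoxb1 (at least 10.5-fold), Hoxb2 (4.50-fold, 3.59 to 5.68), Hoxb4, Hoxb5, Hoxb6, Hoxb7, Hoxb8 (4.42-fold, 2.66 to 7.75) and Hoxb9 (3.73-fold, 2.70 to 5.24). The others were Hoxc8, Hoxc10 (2.56-fold, 2.31 to 2.84), Hoxc11 (4.54-fold, 2.98 to 7.18), Hoxd4 and Hoxd12 (3.10-fold, 2.26 to 4.34). Hoxb7, at 2.04-fold, and Hoxc8, at 2.03-fold, lay just past the threshold.

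The comparison of the E12.5 cultured with the uncultured plate gave 1 member higher and 12 lower of 35 measured, against 18.9% and 13.1% of all features. The median log2 ratio was -0.62 for the members and -0.01 for all features. Hoxa11 was higher (2.13-fold, 1.73 to 2.62). Lower were Hoxb1 (at least 7.72-fold), Hoxb2 (6.58-fold, 4.85 to 9.14), Hoxb3, Hoxb4, Hoxb5, Hoxb6 (4.67-fold, 3.12 to 7.24), Hoxb9, Hoxc8, Hoxc11 (3.93-fold, 2.50 to 6.45), Hoxd3 (at least 2.26-fold, on 12 uncultured counts), Hoxd4 and Hoxd12 (7.42-fold, 4.39 to 13.5). Both comparisons use the same uncultured plate, so the values they share are given side by side and are not counted as repeats of each other. Hoxa11 stayed under 2-fold when control-well counts were subtracted and when leukocyte, endothelial, erythroid and neural wells were left out; over all settings its lowest value was 1.75-fold.

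**Figure D2:**
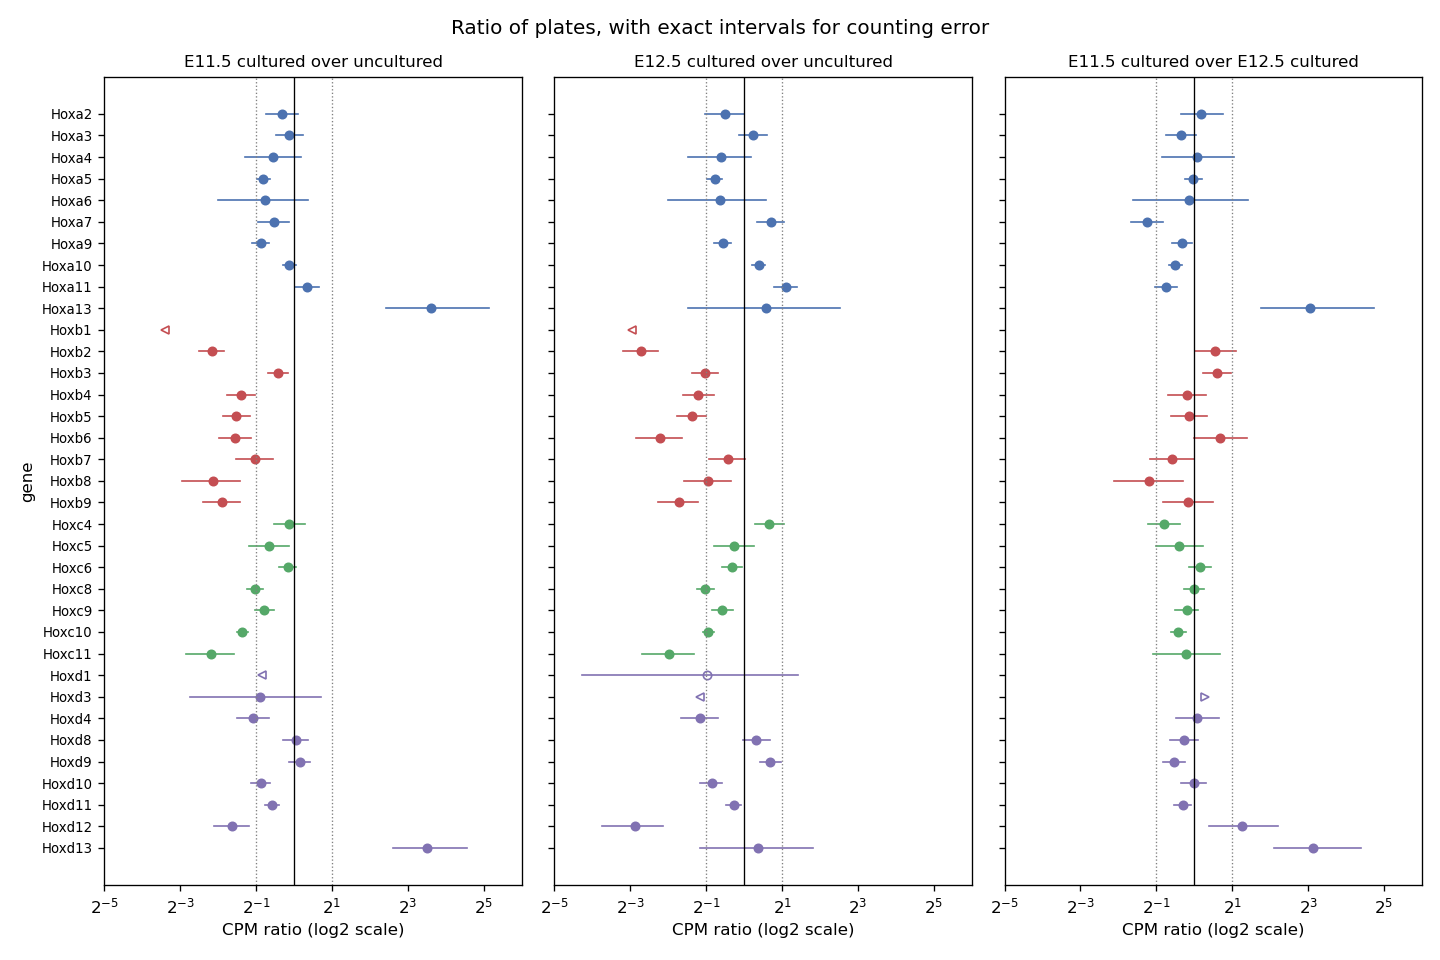
Ratio of CPM between plates (log2 axis) for 35 of the members in the 3 pairs of plates; points carry exact 95% intervals for counting error, dotted lines mark 2-fold, open triangles are bounds against a floor of 3 counts and open circles have under 10 counts in the pair. Hoxb2 lies at 0.222 and 0.152 against the uncultured plate, and Hoxd13 at 11.3 and 8.78 in the panels with the E11.5 cultured plate.

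The cultured plates share genotype and sequencing run and differ in starting stage and, by title, in days of culture. Fewer members differed between them, and so did fewer of all features. Of 33 measured members, 3 were higher on the E11.5 cultured plate and 2 lower, near the 8.35% and 4.54% of all features. Higher were Hoxa13 (8.34-fold, 3.37 to 26.7), Hoxd13 (8.78-fold, 4.28 to 20.9) and Hoxd12 (2.39-fold, 1.32 to 4.59). Lower were Hoxa7 (2.35-fold, 1.76 to 3.17) and Hoxb8 (2.28-fold, 1.23 to 4.34). The median log2 ratio was -0.18 for the members and 0.01 for all 15349 features. Hoxa13 rested on 6 uncultured counts in 3 wells, 66.7% of them in 1 well, and on 5 counts in 3 wells of the E12.5 cultured plate.

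The makeup of the plates moved with these values. Of the kept wells, 32.9%, 8.5% and 4.33% had at least 2 Six2 counts, 38.9%, 33.5% and 19.7% at least 2 Foxd1 counts, 4.75%, 5.0% and 1.33% at least 2 Epcam counts, and 54.6%, 98.5% and 100% at least 2 Col1a1 counts. The nephron progenitor list of 8 genes summed to 1280.4, 311 and 182 CPM, with Dapl1 at 0 on the uncultured and E11.5 cultured plates, and the stromal list of 10 genes to 2849, 21215 and 27256 CPM. Hox levels were therefore also read within wells of a marker.

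In wells chosen by marker the classes overlapped. On the uncultured plate 43 of 111 Six2 wells also had 2 Foxd1 counts, and 6 of 16 Epcam wells also had 2 Six2 counts. Col1a1 at 2 counts did not set wells apart on the E11.5 cultured plate, where it took all 300, and control wells there held 2.13 Col1a1 counts on average. With classes as they overlap, groups 9 to 13 took 53.1%, 51.7% and 47.9% of the Hox counts of Six2 wells on the uncultured, E12.5 cultured and E11.5 cultured plates. They took 53.2%, 56.6% and 51.1% in Foxd1 wells, 53.0%, 58.5% and 54.8% in Col1a1 wells, and 50.8%, 35.4% and 19.0% in Epcam wells. The uncultured Epcam value was 16.5% in wells without the other markers, so the rest of the account uses wells with 1 class only: Six2, Foxd1 or Epcam without 2 counts of the other markers of these 3, and Col1a1 without any of the 3. These were 67, 87, 9 and 53 uncultured wells, 10, 60, 8 and 113 E12.5 cultured wells and 11, 57, 4 and 226 E11.5 cultured wells, for Six2, Foxd1, Epcam and Col1a1.

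Epcam-only wells carried the most anterior code on each plate. Groups 9 to 13 took 16.5% of their Hox counts without culture (10.8 to 23.8), 31.8% from E12.5 (24.9 to 39.3) and 19.0% from E11.5 (9.87 to 31.4). In Six2-only wells the share was 52.8%, 51.6% and 47.7%, in Foxd1-only wells 53.0%, 57.8% and 51.7%, and in Col1a1-only wells 51.9%, 63.3% and 58.0%. The larger posterior share of the cultured plates was thus not met in Six2-only wells. In Foxd1-only wells it was met only from E12.5, and in Col1a1-only wells on both plates. No interval of an Epcam-only class reached those of the 3 mesenchymal classes on its plate. Epcam-only wells were few, and they held 139, 173 and 58 Hox counts.

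The same wells were rich in cluster B. It took 68.3%, 49.1% and 63.8% of the Hox counts of Epcam-only wells, against 25.1%, 18.9% and 23.4% in Six2-only wells. In Foxd1-only wells its share was 9.36%, 6.68% and 8.91%, and in Col1a1-only wells 12.8%, 6.87% and 12.6%. The order Epcam, Six2, then the stromal classes was thus the same on each plate. Cluster C took 6.47%, 6.36% and 5.17% in Epcam-only wells against 42.7%, 34.4% and 34.1% in Foxd1-only wells. Its share was 30.3%, 28.8% and 29% in Six2-only wells and 29.8%, 24.9% and 25.7% in Col1a1-only wells.

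**Figure D3:**
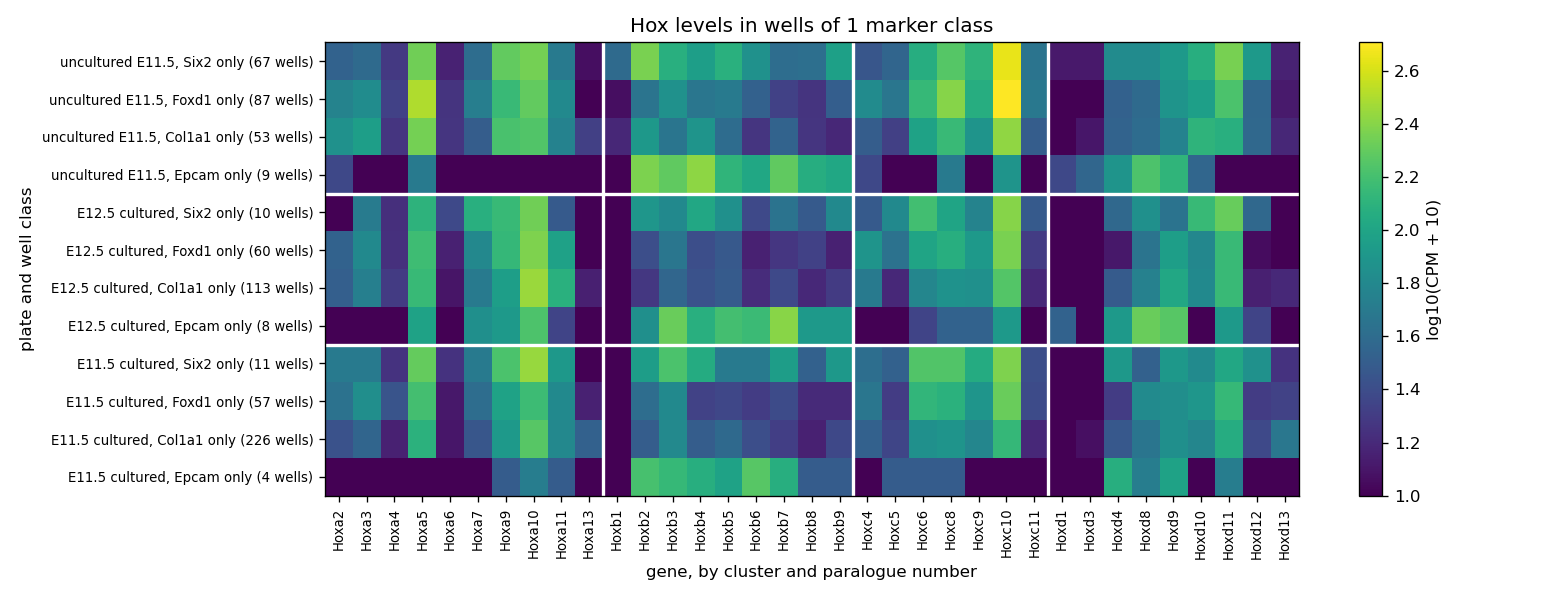
Level of 35 of the members, as log10 of CPM plus 10 (colour), in wells with Six2, Foxd1, Col1a1 or Epcam only on each plate (rows), with genes ordered by cluster and paralogue number (columns). In the Epcam-only rows cluster B is bright, with Hoxb7 at 186, 245 and 108 CPM, and Hoxc10, the brightest gene of the uncultured mesenchymal rows, is at 66.5, 73.6 and 0.

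Named members show what filled these shares. Hoxb7 stood at 186 CPM (102 to 313) in uncultured Epcam-only wells, 245 (150 to 379) from E12.5 and 108 (35.0 to 252) from E11.5. In Six2-only wells it stood at 30.8, 34.4 and 79.1 CPM, and in Foxd1-only wells at 11.3, 8.56 and 14.6. Hoxb7 was thus highest in Epcam-only wells of each plate, though on the E11.5 cultured plate its interval there met that of the Six2-only wells. Hoxd11 had no count in uncultured Epcam-only wells (0 to 49.1 CPM) and stood at 219 CPM in Six2-only and 156 in Foxd1-only wells. Hoxa10 likewise had none there against 214 and 187 CPM. Hoxc10 stood at 66.5, 73.6 and 0 CPM in Epcam-only wells against 440, 241 and 229 in Six2-only wells.

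Set against Six2-only wells, uncultured Epcam-only wells had 4 of 29 measured members at least 2-fold higher (background 12.1%) and 9 lower (background 11.8%). Higher were Hoxb4 (3.16-fold, 1.76 to 5.43), Hoxb7 (6.05-fold, 2.83 to 12.6), Hoxb8 and Hoxd8. Lower were Hoxa5, Hoxa9, Hoxa10, Hoxc6, Hoxc8, Hoxc9, Hoxc10 (6.61-fold, 2.80 to 20.5), Hoxd10 and Hoxd11 (at least 5.47-fold). After culture from E12.5, 7 of 19 were higher (background 17.0%) and 5 lower (background 17.6%), and after culture from E11.5 1 of 17, Hoxb6, was higher (background 15.2%) and 9 lower (background 21.1%). Hoxc10 and Hoxd11 were among the lower members on each plate, with an interval that included 1 for Hoxd11 on the E11.5 cultured plate.

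Between Six2-only and Foxd1-only wells most of the higher members on each plate were of cluster B. In uncultured Six2-only wells 10 of 30 measured members were at least 2-fold above Foxd1-only wells (background 8.05%) and 1 was below (background 12.6%). Hoxb2 stood at 222 CPM (187 to 261) against 35.4 (22.2 to 53.6), a 6.26-fold ratio (3.98 to 10.3). Hoxb1, Hoxb4, Hoxb5, Hoxb6, Hoxb7, Hoxb8, Hoxb9 (3.69-fold, 2.02 to 7.19), Hoxd4 and Hoxd12 (2.64-fold, 1.49 to 4.91) were the other higher members, and Hoxc4 was lower (3.05-fold, 1.55 to 6.45). After culture from E12.5, 8 of 25 were higher (background 10.3%) and 3 lower (background 14.7%). The ratio was 4.39-fold for Hoxb2 (1.67 to 11.4), 6.14-fold for Hoxb4 (2.59 to 14.9) and 12.9-fold for Hoxb9 (3.09 to 75.3). Outside cluster B, Hoxa7, Hoxc11 and Hoxd10 (2.55-fold, 1.38 to 4.56) were higher there, and Hoxa11 (4.08-fold, 1.33 to 20.3), Hoxc4 and Hoxd9 lower. After culture from E11.5, 10 of 28 were higher (background 10.0%) and 2 lower (background 13.8%), with 8.78-fold for Hoxb4 (3.37 to 24.4) and 12.2-fold for Hoxb9 (3.39 to 54.0). Hoxc5, Hoxd4 (6.95-fold, 2.3 to 22) and Hoxd12 (6.18-fold, 1.96 to 20) were also higher, and Hoxa4 and Hoxd8 were lower with intervals that included 1. Hoxb2, Hoxb4, Hoxb5, Hoxb7 and Hoxb9 were past 2-fold on each plate; the interval included 1 for Hoxb7 from E12.5 and for Hoxb5 from E11.5. Six2-only wells were deeper than Foxd1-only wells on each plate, with medians of 8483, 16193 and 11638 counts against 5825, 10467 and 11003.

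Within a class, plate differences were smaller for some pairs and not for others. Cluster B summed to 760 CPM (695 to 830) in uncultured Six2-only wells. There it summed to 406 (309 to 524) from E12.5 and 593 (467 to 744) from E11.5, the latter with an interval that met the uncultured one. In Foxd1-only wells cluster B summed to 243, 117 and 146 CPM on the uncultured, E12.5 cultured and E11.5 cultured plates, and in Col1a1-only wells to 257, 109 and 170. Hoxb2 was 4.50-fold lower on the E11.5 cultured than on the uncultured plate over all kept wells. In Six2-only wells it was 2.80-fold lower (1.48 to 5.97; 79.1 against 222 CPM), in Col1a1-only wells 3.24-fold (1.94 to 5.31), and in Foxd1-only wells it stood at 30.7 against 35.4 CPM, a ratio of 0.868 (0.454 to 1.66). On the E12.5 cultured plate, where Hoxb2 was 6.58-fold lower over all kept wells, it was 2.26-fold lower in Foxd1-only wells (1.05 to 5.15; 15.7 CPM) and 8.07-fold lower in Col1a1-only wells (3.85 to 18.1; 8.9 against 71.8 CPM). On the E11.5 cultured plate Hoxc10 was 2.54-fold lower in Foxd1-only wells (2.07 to 3.14), at 196 against 499 CPM. This was close to its value of 2.56-fold over all kept wells. In Col1a1-only wells of that plate Hoxc10 was 2.04-fold lower. In Six2-only wells Hoxc10 stood at 229 CPM (154 to 329) against 440 (391 to 494).

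By count, Six2-only wells had 1 of 29 measured members at least 2-fold higher on the E11.5 cultured than on the uncultured plate (background 15.4%) and 5 lower (background 17.9%). For the E12.5 cultured plate these were 2 (background 14.5%) and 6 (background 17.8%) of 29. Foxd1-only wells had 1 of 30 higher (background 16.0%) and 11 lower (background 13.4%) on the E11.5 cultured plate, and 0 of 29 higher (background 15.7%) and 11 lower (background 14.5%) on the E12.5 cultured plate. Col1a1-only wells had 3 of 32 higher (background 16.0%) and 10 lower (background 10.3%), and 2 of 30 higher (background 16.9%) and 7 lower (background 12.4%). Side by side for the E11.5 and the E12.5 cultured plate, which share the uncultured wells, Hoxa5 in Foxd1-only wells was 2.08-fold and 2.20-fold lower, Hoxc8 2.14-fold and 2.23-fold, and Hoxc10 2.54-fold and 2.27-fold. Hoxd12 there was 2.67-fold lower (1.05 to 7.62) and 19.2-fold lower (3.01 to 802, on 1 cultured count). Hoxb2 in Six2-only wells was 2.80-fold and 3.22-fold lower. Hoxb1 in Six2-only wells stood at 29.2 CPM without culture (17.6 to 45.7). On the cultured plates it had 0 counts there (up to 29.2 and 25.4 CPM by the exact interval), so the intervals overlapped. Between the cultured plates, Foxd1-only wells had 3 of 27 measured members higher from E11.5 (background 7.49%), Hoxa4 and Hoxb6 among them with intervals that included 1. Hoxc5 was lower (3.34-fold, 1.4 to 9.18; background 5.63%).

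Genes that work with or upstream of Hox genes were compared over the same wells. Of the 9 cofactors, the Pbx, Meis and Pknox homeodomain proteins that bind DNA together with Hox proteins, all were measured and 0 passed 2-fold in any pair of plates. Meis1 stood at 223, 257 and 288 CPM and Meis2 at 651, 425 and 455. Of 10 genes that set Hox expression along the axis, 5 were measured against the uncultured plate and 3 were lower on each cultured plate (11.4% of all features from E11.5 and 13.1% from E12.5). They were Fgf8 (52, 3 and 1 counts), the retinoic acid synthesis gene Aldh1a2 (693, 113 and 86.0 CPM) and Cyp26a1, which degrades retinoic acid (4.09, 0 and 0 CPM). Cdx2 and Cdx4 were listed at 0 on every plate.

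Of 8 kidney genes that act with or under the Hox11 proteins, 5 were at least 2-fold lower on each cultured plate (11.4% of all features from E11.5 and 13.1% from E12.5), and 0 differed 2-fold between these. Eya1, a cofactor of Six2 and its relatives, stood at 208, 17.9 and 24.6 CPM, Pax2 at 297, 47.7 and 31.8, and Sall1 at 139, 26.4 and 17.8. Gdnf, the signal for ureteric budding, stood at 49.6, 16.2 and 8.72, and Six2 was the fifth. Of 20 Polycomb and trithorax genes, whose proteins hold Hox clusters off or on, 2 were higher and 3 lower on the E11.5 cultured plate against the uncultured one, against 20.9% and 11.4% of all features. Cbx2 stood at 127 and 29.0 CPM, Suz12 at 194 and 83.2, Ezh2 at 176 and 77.9, and Ring1 at 13.5 and 30.8. Cbx7 rested on 1 uncultured count. For the E12.5 cultured plate 1 of 19 was higher (Ring1) and 3 were lower (Suz12, Jarid2 and Cbx2), against 18.9% and 13.1% of all features.

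Upstream windows of the 3 posterior members that differed between the cultured plates are shown, since all 3 were higher on the E11.5 than on the E12.5 cultured plate (against the uncultured plate Hoxd12 was lower); RefSeq entries for GRCm38.p6 were matched for 22 of the 36 members. Each window holds the 250 bases before the annotated transcript start, on the strand of the gene and 5′ to 3′, at chr6:52260881-52261130 on the minus strand for Hoxa13, chr2:74667975-74668224 on the plus strand for Hoxd13 and chr2:74674763-74675012 on the plus strand for Hoxd12. Capitals mark matches, on either strand, to any of 5 motifs. They are TGATNNAT, a site form of Pbx and Hox proteins; TTTATG, a form bound by posterior Hox and Cdx proteins; TAATTA, a general homeodomain core; the TATA box form TATAAA; and the CCAAT box.
Hoxa13: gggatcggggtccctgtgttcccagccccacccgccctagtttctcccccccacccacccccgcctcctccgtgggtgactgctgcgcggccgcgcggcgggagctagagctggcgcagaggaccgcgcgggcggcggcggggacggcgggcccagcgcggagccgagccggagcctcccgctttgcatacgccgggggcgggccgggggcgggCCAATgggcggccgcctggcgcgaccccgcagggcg
Hoxd13: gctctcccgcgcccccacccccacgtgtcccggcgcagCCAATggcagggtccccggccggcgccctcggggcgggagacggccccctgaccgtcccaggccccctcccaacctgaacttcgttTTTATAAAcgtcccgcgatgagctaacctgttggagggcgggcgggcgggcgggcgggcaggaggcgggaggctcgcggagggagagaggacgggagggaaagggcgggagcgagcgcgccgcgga
Hoxd12: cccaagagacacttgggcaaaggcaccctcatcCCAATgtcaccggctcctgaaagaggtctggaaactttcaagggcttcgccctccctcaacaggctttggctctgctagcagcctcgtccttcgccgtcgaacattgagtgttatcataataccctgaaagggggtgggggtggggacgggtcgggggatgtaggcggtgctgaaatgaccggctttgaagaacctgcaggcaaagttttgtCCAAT

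The Hoxa13 window had 35 CpG, 80.0% G or C and 1 match to CCAAT, and the Hoxd13 window 31 CpG, 74.4% G or C, 1 match to CCAAT and 2 overlapping matches to TATAAA, 1 on each strand. The Hoxd12 window differed from both, with 10 CpG, 55.6% G or C and 2 matches to CCAAT. None of the 3 held the Pbx and Hox form, the posterior Hox form or the homeodomain core. CCAAT was in 14 of the 24 windows of Hox members (58.3%) and in 33.8% of 32851 windows of all genes. TATAAA was in 16.7% and 12.4%, TGATNNAT in 16.7% and 7.68%, TTTATG in 20.8% and 10.8%, and TAATTA in 8.33% and 4.84%. A match describes letters only.

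Hoxd13 and Hoxa13, of the most posterior group, were seen in many wells of the E11.5 cultured plate. Hoxd13 had 11 counts in 11 of 337 uncultured wells (3.26%), 8 counts in 5 of 200 E12.5 cultured wells (2.5%) and 96 counts in 49 of 300 E11.5 cultured wells (16.3%, 12.3 to 21.0). Hoxa13 had 6 counts in 3 wells, 5 counts in 3 wells and 57 counts in 38 wells (12.7%). With every well thinned to 3000 counts, Hoxd13 was left in 4 of 296 wells (1.35%), 0 of 191 (up to 1.91% by the exact interval) and 22 of 288 (7.64%, 4.85 to 11.3), and 41, 9 and 12 shallower wells were left out. Hoxd13 and Hoxa13 together marked 67 E11.5 cultured wells (22.3%, 17.7 to 27.5), 20 of them with both, against 14 and 6 wells on the other plates.

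The Hoxd13-bearing wells were spread over the plate. They lay in 15 rows and 22 columns, with 19 of 135 kept wells in rows A to H and 30 of 165 in rows I to P, and with 23 in odd and 26 in even columns. Of the 49, 27 had 1 count, 22 had 2 or more and 6 had 4 or more, up to 8. Their median depth was 10316 counts against 8860.5 in the other wells, and the median mitochondrial share was 3.64% against 3.42%. Control wells had no Hoxd13 count, but their 2738 counts in all are too few to show a gene at 29.9 CPM. Transcripts of the tdTomato reporter were found in 40.8% of Hoxd13-bearing and 43.8% of other wells.

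By marker, most Hoxd13-bearing wells of the E11.5 cultured plate were without 2 counts of Six2, Foxd1 or Epcam, as were most of its wells. Col1a1-only wells made up 75.3% of the kept wells and held 42 of the 49 bearing wells. Hoxd13 was in 42 of 226 Col1a1-only wells (18.6%, 13.7 to 24.3) and 5 of 57 Foxd1-only wells (8.77%, 2.91 to 19.3). For Six2-only wells it was 1 of 11 (9.09%, 0.23 to 41.3), and for Epcam-only wells 0 of 4 (up to 60.2% by the exact interval). Median depths in this order were 8607, 11003, 11638 and 12902 counts, so the class with the largest share was the shallowest. The intervals of the Col1a1-only and Foxd1-only shares overlapped. Leukocyte wells, with at least 6 of 8 leukocyte markers and a median depth of 10284, were taken as cells that should lack the gene: 2 of 14 had Hoxd13 (14.3%, 1.78 to 42.8), an interval that holds the plate's share. These 2 wells had 127 and 154 Col1a1 counts against 4 to 23.1 in the other 12, and 1 well held 64.9% of the Hox counts of all 14. Without the leukocyte wells Hoxd13 was in 16.4% of the plate. By level, Hoxd13 stood at 30.1 CPM in leukocyte wells (9.76 to 70.2, on 5 counts), as on the whole plate, and at 37.6 (30.1 to 46.5) in Col1a1-only wells. All Hox transcripts summed to 445 CPM in leukocyte wells against 1349 in Col1a1-only wells.

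Wells with Hoxd13 also carried more of the other most posterior genes. Hoxa13 was in 20 of 49 Hoxd13-bearing wells (40.8%, 27.0 to 55.8) and in 18 of 251 others (7.17%, 4.31 to 11.1), and Hoxd12 in 34.7% (21.7 to 49.6) and 5.98% (3.38 to 9.67). Hoxd11 was in 55.1% and 52.2%, Hoxa11 in 34.7% and 32.7%, and Hoxa10 in 67.3% and 62.9%, with overlapping intervals. Hoxc10 was in 36.7% (23.4 to 51.7) and 55.8% (49.4 to 62.0). With the Hoxd13 count at 0, 1 and 2 or more, the share with Hoxa13 was 7.17%, 33.3% and 50%, that with Hoxd12 5.98%, 29.6% and 40.9%, and that with Hoxc10 55.8%, 51.9% and 18.2%. The last rested on 4 of 22 wells, and by level Hoxc10 stood at 104 CPM (71.5 to 146) there against 154 (139 to 170) in wells without Hoxd13.

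By level, of 35 other members 32 were measured in this contrast, 2 were at least 2-fold higher (background 4.87%) and 4 lower (background 8.84%). Hoxa13 stood at 47.6 against 9.85 CPM (4.83-fold, 2.77 to 8.50) and Hoxd12 at 43.1 against 7.88 (5.47-fold, 2.99 to 10.2). The 4 lower ones, Hoxa6, Hoxb8 and Hoxc11 among them, all had intervals that included 1. Several members further forward were near level: Hoxd11 stood at 113 against 110 CPM, Hoxa11 at 53.5 against 53.2, and Hoxa10 at 150 against 173. Others stood lower, under 2-fold but with intervals that excluded 1: Hoxa9 at 53.5 against 83.5 CPM (1.56-fold, 1.09 to 2.29), Hoxd9 at 44.6 against 66.6 (1.49-fold, 1.01 to 2.28) and Hoxa5 at 90.7 against 135 (1.49-fold, 1.13 to 1.98). Without Hoxd13 itself, groups 9 to 13 took 56.8% of the Hox counts of bearing wells (53.5 to 60.1) and 53.2% of those of other wells (51.6 to 54.8).

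**Figure D4:**
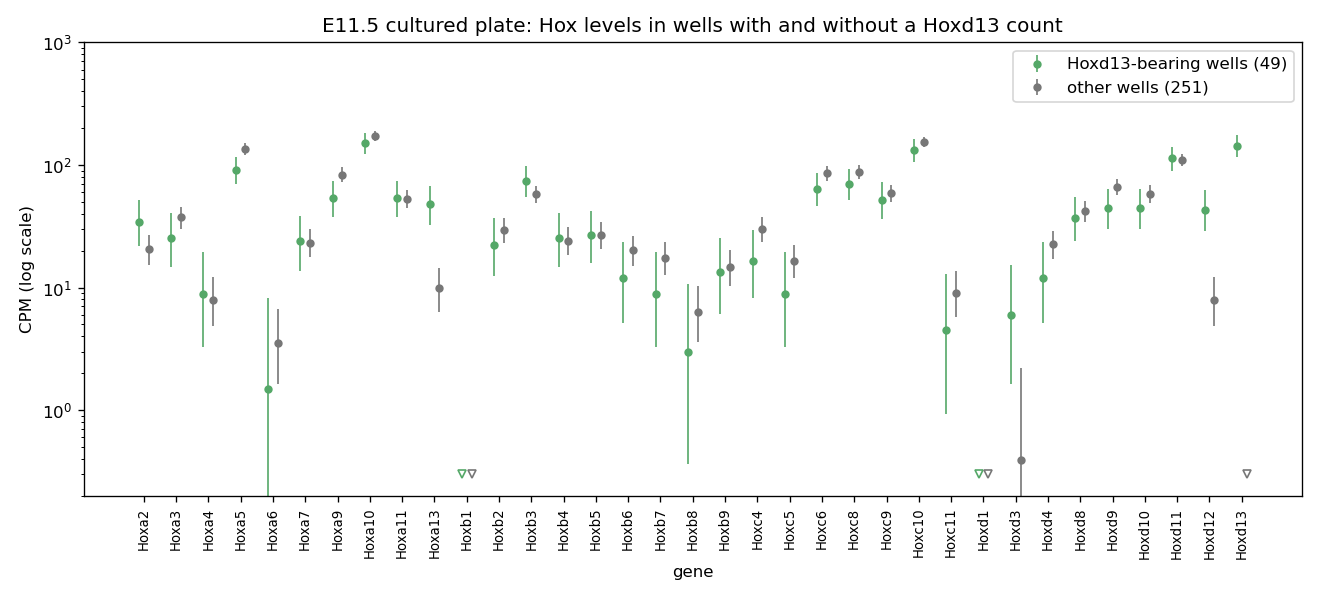
Level of 35 Hox members in CPM (log axis) in the 49 Hoxd13-bearing wells and the 251 other kept wells of the E11.5 cultured plate, with exact Poisson 95% intervals; open triangles at the bottom mark 0 counts. Hoxa13 (47.6 against 9.85) and Hoxd12 (43.1 against 7.88) stand apart, while Hoxd11 and Hoxa11 lie level.

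All genes with at least 50 counts on the plate and found in at least 25% of the wells of the higher side were ranked by the ratio of Hoxd13-bearing to other wells. A gene could pass this filter through its higher side alone. The named genes were picked by the same ratio that is printed, so their ratios lean to the extreme. Their intervals make no allowance for this choice. Of 6949 such genes the 15 highest included Ptchd4 (13.6-fold, 8.36 to 22.8), Tmem100, the homeobox gene Msx1 (4.85-fold), Hoxa13, Emilin3, the BMP antagonist gene Nog (4.45-fold), Fgf10, a growth factor gene of limb, lung and genital outgrowth (4.43-fold), the LIM homeobox gene Isl1 (4.38-fold, 3.08 to 6.26; 107 against 24.5 CPM), Six4, Plce1, AC122860.2, Grin3a, Fibin and Capn6 (3.43-fold, 2.92 to 4.02). The 10 lowest were S100a8 (19.5-fold lower), Gm21738, Gm10800, Gm10801, the granulocyte elastase gene Elane (5.39-fold lower), Apoe, Gm26870, Abhd5, Gm10717 and Ntm. Of the counts in other wells, 49.1% for S100a8, 51.8% for Elane and 48.5% for Isl1 came from 1 well each. For Gm21738, Gm10800, Gm10801 and Gm10717 this share was 32.9% to 36%. In bearing wells 33.9% of the Tmem100 counts came from 1 well. Isl1 was in 7.57% of wells with 0 counts of Hoxd13, 37.0% with 1 and 59.1% with 2 or more.

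**Figure D5:**
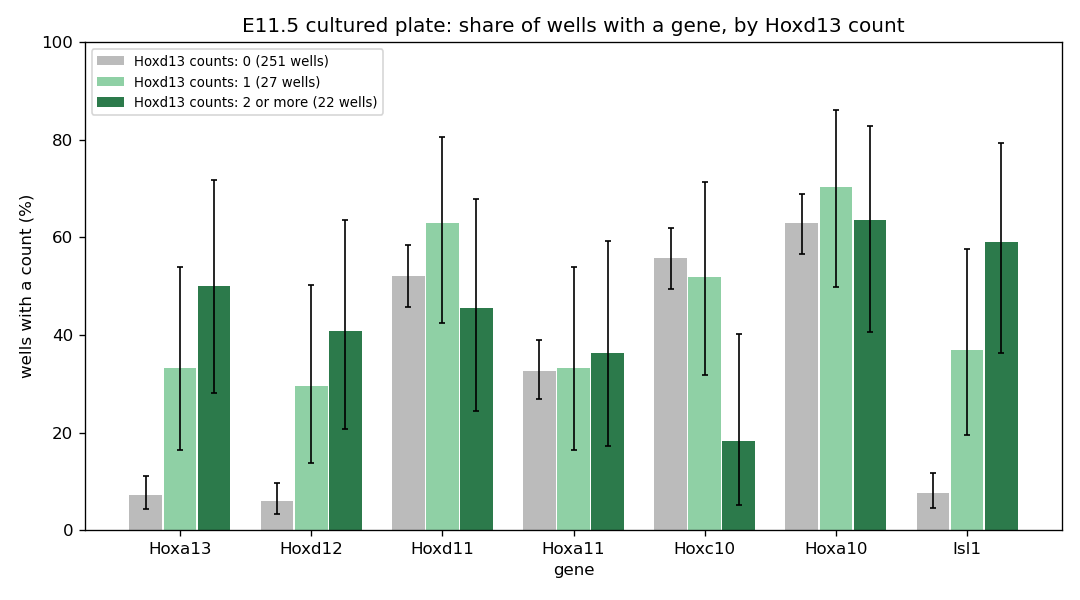
Percent of E11.5 cultured wells with a count of each gene (bars from 0, exact binomial 95% intervals), for wells with 0, 1 and 2 or more Hoxd13 counts. Hoxa13 goes over the bars from 7.17% to 50% and Isl1 from 7.57% to 59.1%, while Hoxa11 lies between 32.7% and 36.4%.

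Marker lists described the same wells, and their counts stand against 4.87% of all features higher and 8.84% lower. Of the genes of cloacal and genital mesenchyme, with the Hox members left out, 7 of 10 were measured and 5 were at least 2-fold higher, among them Isl1, Pitx1 (2.94-fold, 0.929 to 8.86), Osr2 (2.22-fold, 1.76 to 2.79) and Bmp4 (2.76-fold, 2.16 to 3.51). Esr1, at 63.9 against 37.4 CPM, and Wnt5a, at 190 against 169, did not pass, and Tbx4, Tbx5 and Shh had no count in bearing wells. The list's median log2 ratio was 1.46 against -0.02 for all features, and its sum was 998 against 438 CPM, with 81.8 to 3564 (median 1164) in single bearing wells and 0 to 3466 (median 276) in others. The list was chosen with earlier results of these wells known and is not independent evidence of its direction.

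Of 10 stromal genes measured 0 passed 2-fold (background 4.87% higher and 8.84% lower, as for each list that follows), and the sum was 29109 against 26765 CPM. Of the ureter mesenchyme and smooth muscle list 2 of 11 were higher (Myocd and Bmp4) and 2 lower (Sox9 and Myh11). In the ureteric epithelium list 1 of 8 was higher, Wfdc2, and 6 were lower, Epcam among them, and its sum was 98.4 against 146 CPM with Wnt9b, Calb1 and Krt8 at 0. In the nephron progenitor list 1 of 6 was higher, Eya1, and 3 lower, and in the early nephron list 0 of 5 and 3. Neural and neural crest genes summed to 95.2 against 551 CPM (7 of 8 lower), with Tubb3 at 2.97 against 100. Endothelial genes summed to 107 against 192 CPM (5 of 8 lower, and Kdr higher, with Tie1 at 0). Leukocyte genes summed to 385 against 1104 CPM (4 of 8 lower). The part of these other cells in the ratios to other wells was not tested. In the gonad, adrenal and coelomic list 1 of 5 was higher, Upk3b, with all 19 counts in 1 of the 49 wells and thus none without it, in the paraxial mesoderm list 1 of 5 was lower, Sox9, and no erythroid gene was measured.

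Among Hox partners in the same contrast, 0 of 9 cofactors were higher (background 4.87%) and 1 was lower (background 8.84%), Pbx4, on 1 count with an interval that included 1. Of the Hox11 partners Eya1 was higher (2.31-fold, 1.42 to 3.71), and of 19 measured Polycomb and trithorax genes Cbx8 (2.01-fold, 1.02 to 3.81). On the plates as wholes the cloacal and genital list, Hox members included, had 8 of 10 measured genes at least 2-fold higher on the E11.5 cultured than on the E12.5 cultured plate, against 8.35% of all features. Hoxa13, Hoxd13 and Hoxd12, already given above, are 3 of these 8. The list was chosen with earlier results of these data known, so this count is not independent evidence either. Bmp4 was not among them, at 87.8 CPM from E11.5 and 103 from E12.5. Osr2 stood at 31.1, 23.8 and 102 CPM on the uncultured, E12.5 cultured and E11.5 cultured plates. Isl1 stood at 9.14 CPM without culture and 41.8 from E11.5.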

How the data were processed

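Single cells of mouse embryonic kidney were counted on 3 plates by SORT-seq. The authors deposited 1 table per plate of expected counts per gene and well, numbers of molecular identifiers corrected for repeated draws. Per the submitters' processing notes, the tools were STAR 2.6.1a and featureCounts 1.5.2 and the build GRCm38.p5; their settings are not given in the sources used here. Plates share all 384 well names by construction, not cells. Wells labelled as controls, or as holding several cells, were not used as cells. The rest were kept with at least 1000 counts of nuclear-encoded genes and at most 30% mitochondrial counts. No doublet caller was run. A column whose name marks counts of unknown wells, with 4.21%, 4.27% and 4.26% of the plate totals, was left out.

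CPM of summed counts carry exact Poisson intervals, ratios exact binomial intervals of the split of counts, and shares Clopper-Pearson intervals. A ratio against 0 counts used a floor of 3 counts and is written with "at least". Counting was done with python 3.11.15, numpy 2.4.6, scipy 1.17.1 and pandas 2.3.3, and the comparison was tested on simulated data. Values were rounded to whole counts only for thinning and intervals. Members with at least 100 counts were described on every plate, the others by range, and Hoxd13 always; the genes named for Hoxd13-bearing wells follow the ranking rule given with them. Values of 1 member and of a few other genes are not reported here, though counts and sums include them. The Hox members and all lists were chosen with earlier results of these data known. The CCAAT motif and the leukocyte well rule were added after the data had been seen. Alternatives varied the well filters, deep wells, weights of wells, control-well counts, totals, plate columns, other cell types and thresholds.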

Additional observations from a re-analysis of the deposited data

Results flagged for a closer look

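Wells labelled as holding more than 1 cell enter no comparison above and stood at a higher summed Hox level than single-cell wells. On the E12.5 cultured plate 38 such wells stood at 2606 CPM (2482 to 2733) against 1731 in kept wells, and on the E11.5 cultured plate 36 wells stood at 1972 CPM (1865 to 2086) against 1494. Hoxb2 stood at 143 against 19.2 CPM and at 60.3 against 28.0, with 19.6% and 23.7% of the multi-cell counts in 1 well. Six2 stood at 405 against 77.6 CPM in the E12.5 wells and Epcam at 109 against 22.6, and cluster B took 28.5% of their Hox counts against 10.4%. On the E11.5 cultured plate Hoxd13 stood at 4.76 CPM in multi-cell wells, found in 3 of 42 labelled wells, against 29.9 in kept wells, and Hoxa13 at 6.34 against 17.8. The part of the different cell makeup was not tested.

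Hoxa11os, an antisense feature that is no member, stood at 33.4, 58.7 and 40.5 CPM on the uncultured, E12.5 cultured and E11.5 cultured plates, with 0 counts in control wells. It overlaps Hoxa11, and without a stated strand setting reads of the pair cannot be told apart.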

How the results depend on the processing

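Of the values of the main results under other settings, 130 stayed within counting error (counts within 1.5 times) and 20 moved. Counts of members could only be labelled as stayed or moved, so a reversal was not defined for them. For single members 409 stayed, 37 moved and 0 reversed. No paired analysis was possible because each group is 1 plate. The count of members higher on the E12.5 cultured than on the uncultured plate (1) was 2 without wells over 3 times the plate median, 3 in even columns, 2 as a mean over wells, and 0 without leukocyte, endothelial, erythroid and neural wells and with control-well counts subtracted. The count lower there (12) was 7 in even columns. The count lower on the E11.5 than on the E12.5 cultured plate (2) was 0 in odd columns and 1 with at least 50 counts. The share of groups 9 to 13 on the E11.5 cultured plate (54.8%) was 56.9% in odd and 52.4% in even columns. The Hoxd13 share (16.3%) was 7.33% at 2 or more counts and 7.64% after thinning; it was 16.4% without leukocyte wells, a setting chosen after seeing the data.

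In Epcam wells the share of groups 9 to 13 depended on which wells were taken. On the uncultured plate (50.8%) it was 24.9% without wells over 3 times the plate median, 45.9% without leukocyte, endothelial, erythroid and neural wells, 34.7% as a mean over wells, 40.0% at 4 or more Epcam counts and 16.5% in wells of 1 class. From E12.5 (35.4%) it was 42.8% at 1 or more and 21.2% at 4 or more Epcam counts, and from E11.5 (19.0%) 36.4% at 1 or more. Odd columns of the E11.5 cultured plate held no Epcam well. Hoxd13 was 10.4- to 13.2-fold above the uncultured and 6.12- to 32.0-fold above the E12.5 cultured plate, and Hoxa13 7.50- to 13.3-fold and 4.73- to 39.7-fold. Members under about 10 counts on a plate, Hoxa13 and Hoxd13 without culture among them, are limited by depth.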

Other observations

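Several further features of the Hox loci are listed in the tables and are no members. Hotairm1, of cluster A, had 36, 27 and 47 counts on the uncultured, E12.5 cultured and E11.5 cultured plates, and Hoxb3os and Hoxb5os, antisense features of cluster B, stood at 17.1, 7.66 and 9.03 and at 11.8, 5.53 and 2.49 CPM. Hoxaas2 stood at 6.73, 4.26 and 11.2 CPM and Hoxaas3 at 7.93, 6.39 and 2.80. Hoxd3os1 stood at 7.93, 10.2 and 4.05 CPM. Hotair had 10, 3 and 1 counts and Haglr 7, 6 and 2. No source used here gives the strand setting of the counting, so such counts cannot be told apart from those of overlapping members.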
